A study of Ovis aries with 15 samples.

Results

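The genes described here are the zinc finger genes that carry a ZNF symbol, followed through the last part of fetal life and after birth in the longissimus dorsi (LD), the long muscle of the back, of sheep. They were taken as the probe sets whose only annotated gene symbol began with ZNF and a number, whose signal was 50 or more on at least 3 arrays, with the brightest probe set standing for each gene. The rule found 77 of the 87 ZNF genes named on the array, among 7553 named genes and 15998 probe sets that passed the same filter. The fetal samples were taken at 80, 100 and 120 d of development, the newborn ones at 150 d, within days of birth, and those of young lambs at 230 d. Each stage had 3 animals of a Dorset/Suffolk/Rambouillet cross, different animals at every stage, with 1 array per animal and 15 arrays in all. By the study's group totals all animals were males except 1 female at 100 d and 1 at 120 d, without a record of which animal it was. No treatment was applied. The RNA was ovine and the array bovine, so a low signal may also reflect probes that match the sheep sequence poorly.

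Most ZNF proteins bind DNA through tandem fingers of the C2H2 type, in which a pair of cysteines and a pair of histidines hold a zinc ion. Many carry a KRAB domain, which recruits the scaffold protein TRIM28 and with it enzymes that silence chromatin, while a SCAN domain lets others pair with each other. A smaller number act on RNA, on ribosome assembly or as regulators of progenitor cells, and it is the roles of these that are best known in developing mesenchymal tissues.

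The values were MAS5 signals on a linear scale, which the authors had scaled to a mean of 200 on each array. The tissue label was borne out by the muscle fibre markers ACTA1, CKM, MB, TNNT3 and MYBPC1, whose summed signal ranged from 49700 to 192000 over the 15 arrays and averaged 58900, 65100, 74000, 118000 and 169000 at the 5 stages. The median signal of all probe sets averaged 64.0, 66.0, 64.1, 58.9 and 66.4 at 80, 100, 120, 150 and 230 d. Pairs of arrays of 1 stage differed by a median of 0.256 to 0.469 log2 units over all probe sets that passed and of 0.253 to 0.489 over the ZNF genes.

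ZNF transcripts gave modest signals. The geometric mean over the 15 arrays had a median of 121 over the 77 genes, beside 127 over all probe sets tested, and it ranged from 20.7 to 1810. It lay under 100 for 31 genes and above 300 for 13. Signals reached 50 on all 15 arrays for 44 genes and on only 3 to 5 arrays for 4 genes. A signal of 50 was reached on fetal arrays only by 2 genes and on postnatal arrays only by 1 gene. At the limit of the rule, ZNF79 and ZNF165 entered with a third-highest signal of 50.1, whereas ZNF394 and ZNF814 stayed out with 47.4 and 41.2. The levels of different probe sets are not comparable, so the brightness of one gene beside another describes only the arrays.

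The median signal of the 77 genes was lower on the postnatal arrays. It was 130 ± 4.99, 137 ± 8.52 and 133 ± 5.31 at 80, 100 and 120 d, and 109 ± 9.01 and 109 ± 4.71 at 150 and 230 d (SD, n = 3 each). All probe sets that passed the filter were lower as well, with medians of 138 ± 3.32, 141 ± 3.91 and 135 ± 4.36 at the fetal stages and 119 ± 8.66 and 128 ± 1.49 at 150 and 230 d, so that a part of the difference was shared. The log2 median of the ZNF genes minus that of these probe sets ran from -0.295 to -0.017 on the postnatal arrays and from -0.143 to 0.046 on the fetal arrays. The number of ZNF genes at 50 or more lay between 56 and 67 on the postnatal arrays (72.7% to 87%) and between 65 and 71 on the fetal arrays (84.4% to 92.2%). Of all probe sets that passed the filter, 75.5% to 82.7% and 80.3% to 85.3% were at 50 or more. The lowest values of both sets on the postnatal arrays were those of 150 d replicate 2. The heat map shows the genes sorted by their fitted postnatal against fetal change. That order would bring out a step across birth in any set of genes.

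**Figure D1:**
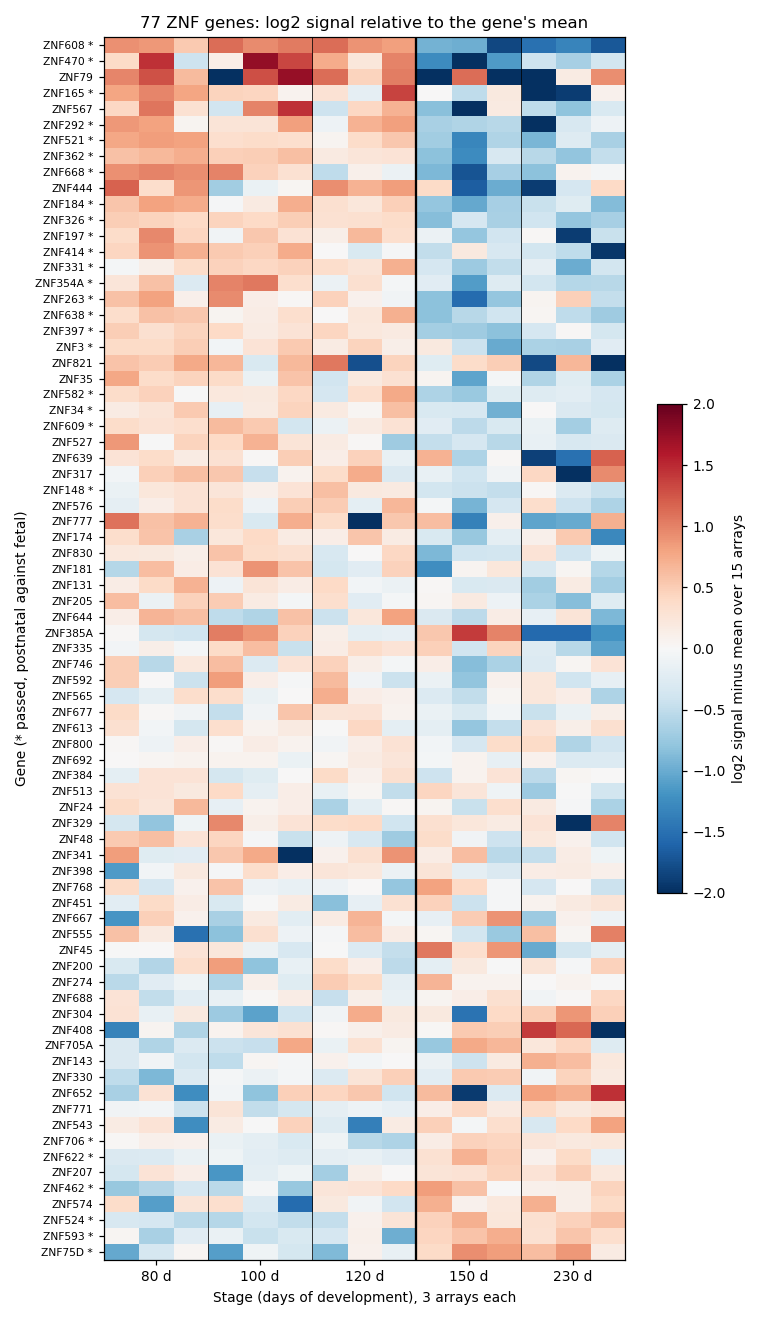
Log2 signal of the 77 ZNF genes (rows) on the 15 arrays (columns, 3 per stage in the order 80, 100, 120, 150 and 230 d), each relative to the gene's own mean and coloured between -2 and 2, with values beyond these shown in the end colours. Rows run from the lowest to the highest fitted postnatal against fetal change, the heavy line marks birth, and asterisks mark the 27 genes that passed the test, of which 21 were lower and 6 higher after birth.

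Stages were compared by limma on log2 signals, with all 15 arrays sharing 1 estimate of the spread, and a gene was called at a Benjamini-Hochberg adjusted p under 0.01 over all 15998 probe sets of a comparison. The main change of the series fell between 120 d and 150 d. In that interval 10 of the 77 ZNF genes were called, or 13%, beside 11.2% of all probe sets tested and 13.3% of named genes. The ZNF share was thus near the background. Of these genes 8 were lower and 2 higher at 150 d, that is 10.4% and 2.6% of the ZNF genes, beside 6.77% and 4.41% of all probe sets. Whether or not they were called, 49 of the 77 genes (63.6%) had a fitted change below 0, beside 58% of all probe sets. The median log2 fold change was -0.29 over the ZNF genes and -0.15 over all probe sets tested. The 3 arrays of 150 d lay all below the 3 arrays of 120 d for 22 ZNF genes and all above them for 8, beside backgrounds of 22.9% and 14.3% of all probe sets.

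The comparison of both postnatal with all 3 fetal stages used 6 against 9 arrays and gave more calls. It called 27 ZNF genes, or 35.1%, beside 34.5% of all probe sets and 38.1% of named genes, which again lay near the background. Here 21 genes (27.3%) fell and 6 (7.79%) rose after birth, beside 21.3% and 13.3% of all probe sets and 21.7% and 16.4% of named genes. The median log2 fold change was -0.38 over the ZNF genes and -0.13 over all probe sets, and 52 of 77 ZNF genes (67.5%) lay below 0, beside 55.8%. The distribution plot shows the curve of the ZNF genes to the left of both others over its middle range. In postnatal against fetal stages the fitted changes of the ZNF genes ran from -2.29 to 1.05, those of all probe sets from -9.78 to 6.42. These ranges depend on set size and cannot show a narrower spread. Percentiles 5 and 95 were -1.287 and 0.588 for the ZNF genes, beside -1.692 and 1.419 for all probe sets. At 150 d against 120 d percentile 95 was 0.809, beside 1.244. The lower end there was not shorter throughout, with percentile 3 at -2.017 beside -1.798. The 2 comparisons share arrays and are not independent.

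**Figure D2:**
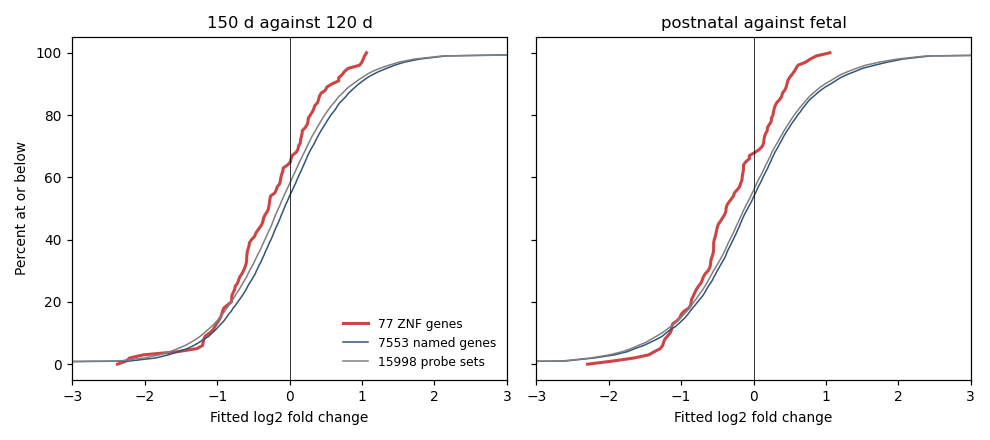
Cumulative percent of fitted log2 fold changes (horizontal axis) for the 77 ZNF genes, the 7553 named genes and the 15998 probe sets tested, for 150 d against 120 d (left) and postnatal against fetal stages (right). The axis is drawn from -3 to 3, and the medians of the ZNF genes lie at -0.29 and -0.38, below those of all probe sets at -0.15 and -0.13.

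The split between rises and falls depended on how the arrays were scaled. With array medians set equal, 5 ZNF genes were higher and 3 lower at 150 d, and with quantile normalization 4 were higher and 4 lower. With arrays scaled without the 100 brightest probe sets, 11 were lower and 0 higher, and with scaling to the hybridisation controls 23 were lower and 0 higher. Of all probe sets, 10.2%, 9.33%, 14.5% and 25.2% were called under these settings, so the totals of 8, 8, 11 and 23 of 77 ZNF genes moved with the background. The median over all probe sets moved with these settings, to 0.035, -0.053, -0.364 and -0.805 at birth in the same order, so that signs are relative to it. The ZNF median at birth was below it in each case, at -0.10, -0.13, -0.50 and -0.94. Under all 5 scalings 3 of the 8 falls at birth were called, those of ZNF608, ZNF521 and ZNF397, and neither of the 2 rises was. For postnatal against fetal stages 11 of the 21 falls and 0 of the 6 rises were called under all 5 scalings, while the median over all probe sets moved to 0.040, -0.056, -0.362 and -0.818. Those falls were of ZNF184, ZNF326, ZNF331, ZNF354A, ZNF362, ZNF397, ZNF470, ZNF521, ZNF608, ZNF638 and ZNF668.

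**Figure D3:**
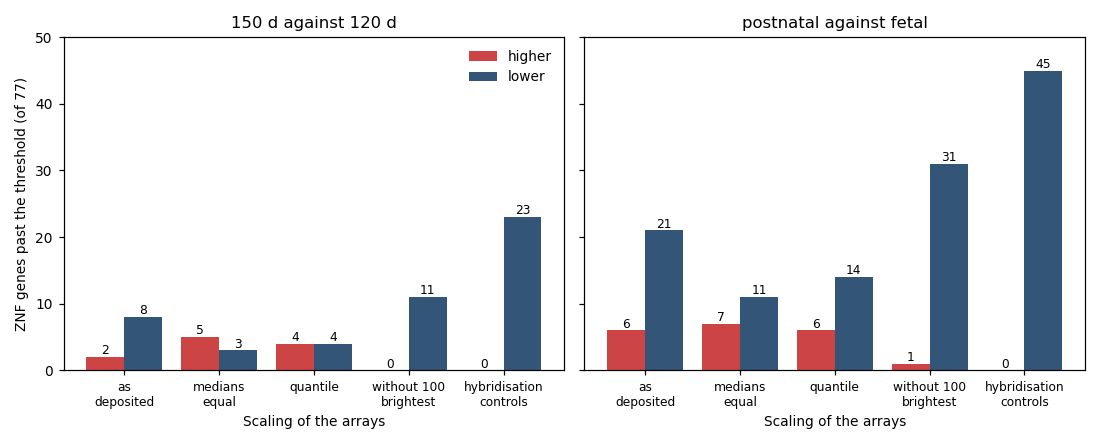
Number of ZNF genes past the threshold, of 77, that were higher (left bar of a pair) or lower (right bar) at 150 d against 120 d (left panel) and in postnatal against fetal stages (right panel), under the deposited scaling and 4 others. As deposited, 2 were higher and 8 lower at 150 d, and with medians set equal 5 were higher and 3 lower.

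Before birth no ZNF gene was called between neighbouring stages. The background was 0.125% of all probe sets between 80 and 100 d and 0.0563% between 100 and 120 d, and 1.31% of all probe sets passed between 80 and 120 d, again with 0 ZNF genes. At an unadjusted p under 0.05, limma gave 1, 6 and 8 ZNF genes in these comparisons, beside 8.24%, 7.44% and 16.8% of all probe sets. The smallest unadjusted p between 80 and 100 d and between 100 and 120 d was that of ZNF385A, which is taken up below. ZNF462, needed for brain and craniofacial development in mice and humans, had 142.2, 159.7 and 190.4 at 80 d, 165.9, 234.9 and 142.1 at 100 d, and 285.6, 291.8 and 317.3 at 120 d. Its 120 d values lay above all values of the earlier stages, but the log2 difference of 0.87 against 80 d missed the threshold (adjusted p = 0.073). ZNF668, tied to DNA repair in human cells, ran the other way, with 46.6, 70.9 and 61.2 at 120 d against 124.4, 130.9 and 126.0 at 80 d (log2 difference -1.11, adjusted p = 0.071). The KRAB gene ZNF304 had 32.3, 25.3 and 40.4 at 100 d against 65.1, 48.2 and 61.2 at 80 d, close to the filter limit, and missed as well (log2 difference -0.85, adjusted p = 0.65).

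After birth, between 150 and 230 d, 1 ZNF gene was called, or 1.3%, beside 2.03% of all probe sets. The median log2 fold change of the ZNF genes was -0.006, beside 0.073 over all probe sets. Written as a sequence of rises, falls and flat steps over the 4 intervals, 67 of the 77 genes were flat throughout, 8 fell only at birth, 1 rose only at birth and 1 rose at birth and fell afterwards. Flat here means that no interval passed the test.

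The developmental regulators held the gene with the largest fall of the family over all stages. Of 16 genes in this list, which was drawn up with earlier results of these data known, 4 were measured above the filter. In postnatal against fetal stages ZNF608, ZNF521 and ZNF609 fell and ZNF462 rose, and at birth ZNF608 and ZNF521 fell. These were 4 and 2 of 4 genes, beside 34.5% and 11.2% of all probe sets.

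ZNF608, a paralogue of ZNF609 known in mice for a role in developing T cells, had the smallest adjusted p of the family at birth and over all stages. Its signals were 560.6, 545.1 and 430.4 at 80 d, 648.5, 575.5 and 612.0 at 100 d, 647.4, 557.5 and 524.1 at 120 d, 154.8, 151.5 and 84.4 at 150 d, and 106.1, 119.1 and 92.6 at 230 d. Every postnatal array lay below every fetal array, and the fetal stages overlapped each other. ZNF608 was 4.57-fold lower at 150 d than at 120 d (log2 fold change -2.19, SE 0.23, adjusted p = 8.9e-05). Over all stages the postnatal against fetal log2 fold change was -2.29 (SE 0.15, adjusted p = 1.7e-07). The call at birth was made under each scaling and without any one array, and was lost when only the 6 arrays of these stages were fitted, as was every ZNF call at birth.

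ZNF521 encodes a protein with many fingers that binds and restrains EBF1 in mouse progenitor cells and holds back their turn to fat cells. It had 465.1, 485.4 and 476.6 at 80 d, 346.1, 353.6 and 344.2 at 100 d, 283.5, 350.8 and 397.7 at 120 d, 169.0, 110.4 and 179.6 at 150 d, and 144.3, 227.9 and 174.0 at 230 d. All postnatal values lay below all fetal values, and the 80 d values were the highest of the 5 stages. The fall at birth was 2.28-fold (log2 fold change -1.19, SE 0.23, adjusted p = 0.0028). It was no longer called without 120 d replicate 2, 120 d replicate 3 or 150 d replicate 2, with log2 fold changes between -1.32 and -0.97 over the arrays left out.

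ZNF609, which binds the Integrator complex in neural progenitors of mice, averaged 254.5 ± 25.5 at 150 d against 352.8 ± 49.4 at 120 d and was not called at birth. It passed narrowly in postnatal against fetal stages (log2 fold change -0.59, SE 0.16, adjusted p = 0.010) and, when single arrays were left out, kept its call only without 100 d replicate 3. ZNF462 had 431.5, 362.9 and 241.1 at 150 d and 257.8, 259.9 and 327.7 at 230 d. Its postnatal values lay near those of 120 d and above those of 80 d, and the postnatal against fetal log2 fold change was 0.58 (SE 0.16, adjusted p = 0.0091). That rise was lost without any of 13 single arrays, had the opposite sign under scaling to the hybridisation controls, and was 0.16 and 0.41 on the gene's other probe sets, neither of which was called.

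Of 13 genes listed for work on RNA and ribosomes, 7 were tested. At birth 1 rose and 1 fell, and in postnatal against fetal stages 2 rose and 2 fell. The shares called were 28.6% and 57.1% of 7 genes, beside 11.2% and 34.5% of all probe sets. The other 4 scalings gave 0 to 3 rises and 0 to 3 falls at birth, and 0 or 2 rises and 2 or 4 falls over all stages. ZNF326, part of a complex that couples transcript elongation by RNA polymerase II to splicing, had 459.0, 655.8 and 528.1 at 150 d against 1019.5, 1036.5 and 1062.5 at 120 d. At 230 d it had 624.9, 485.6 and 524.8, and at 80 and 100 d it averaged 1129 ± 36.9 and 1128 ± 37.4. The fetal values were tight and stood above all postnatal values. It was 1.92-fold lower at 150 d than at 120 d (log2 fold change -0.94, SE 0.17, adjusted p = 0.0020), a call lost with array medians set equal.

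ZNF638, which binds nucleic acid in the nucleus and works with C/EBP factors in mouse adipocyte formation, averaged 1003 ± 146 at 150 d and 1166 ± 327 at 230 d, against 2109 ± 173, 1701 ± 173 and 1898 ± 484 at 80, 100 and 120 d. The postnatal against fetal fall was called (log2 fold change -0.82, SE 0.15, adjusted p = 6.9e-04), although the highest 230 d value of 1534.4 overlapped the fetal range. The difference at birth alone missed the threshold (adjusted p = 0.016).

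The 2 ribosome genes moved the other way. ZNF593 and ZNF622 take part in making the large ribosomal subunit, as shown for their relatives in yeast. ZNF593 had 132.6, 145.3 and 161.5 at 150 d and 121.4, 143.9 and 123.0 at 230 d, all above the highest fetal value of 105.5, and rose in postnatal against fetal stages (log2 fold change 0.81, SE 0.17, adjusted p = 0.0015). ZNF622 averaged 562.2 ± 78.0 at 150 d and 432.0 ± 82.8 at 230 d, against 338.8 ± 21.1, 350.4 ± 22.5 and 349.0 ± 10.5 at the fetal stages, and rose by 0.50 on the log2 scale (SE 0.11, adjusted p = 0.0031). Neither rise was called with the 100 brightest probe sets left out of the scaling, and with the hybridisation controls that of ZNF622 had the opposite sign and that of ZNF593 was not called.

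ZNF385A, also called HZF, binds RNA and steers p53 toward genes of cell cycle arrest, and it was the only ZNF gene called in 2 intervals. It had 152.6, 117.0 and 113.5 at 80 d, 306.7, 276.3 and 205.5 at 100 d, 162.1, 131.3 and 133.5 at 120 d, 218.8, 396.9 and 297.7 at 150 d, and 51.0, 51.1 and 65.3 at 230 d. In each of the 4 intervals the 3 arrays of one stage lay wholly above or below those of the next. The difference at 100 d missed the threshold (log2 1.03, unadjusted p = 0.0010, adjusted p = 0.15), as did that at 120 d against 100 d (log2 -0.87, adjusted p = 0.30). The rise at 150 d was 2.09-fold (log2 fold change 1.06, SE 0.24, adjusted p = 0.0083) and the fall at 230 d was 5.34-fold against 150 d (log2 fold change -2.42, SE 0.24, adjusted p = 2.8e-04). The fall was called under every scaling and without any one array. The rise was called without 100 d replicate 1, 100 d replicate 3, 150 d replicate 1 or 230 d replicate 3, and was lost without each of the other 11 arrays, where adjusted p reached 0.034.

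**Figure D4:**
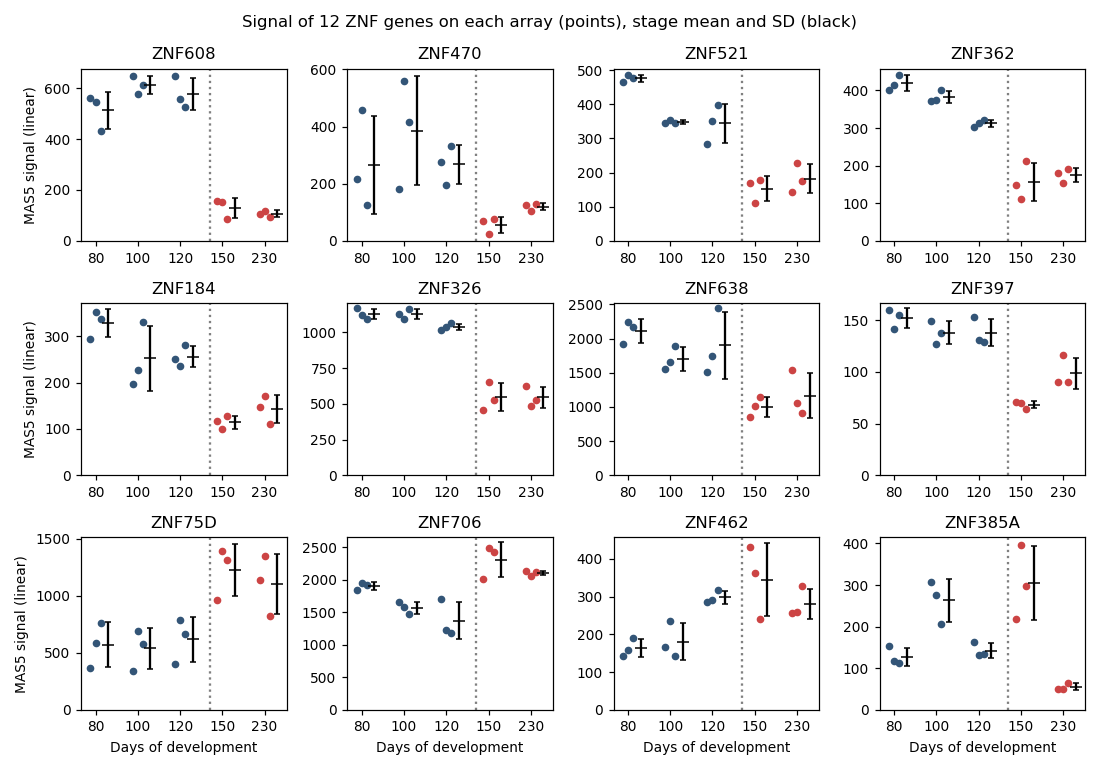
MAS5 signal on a linear scale for 12 ZNF genes at 80, 100, 120, 150 and 230 d, with 1 point per array, the stage mean and SD in black, and the dotted line at birth. ZNF608, ZNF521, ZNF362, ZNF184, ZNF326 and ZNF397 lie lower on all 6 postnatal arrays than on all 9 fetal arrays, ZNF75D and ZNF706 lie higher on all 6, and ZNF385A is higher at 100 d and 150 d than at the other stages and lowest at 230 d.

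The next genes carry KRAB or SCAN domains, and they were taken by the naming rule and not as a list with a count. ZNF184, a KRAB gene, had 117.1, 99.2 and 127.5 at 150 d against 250.3, 235.8 and 280.2 at 120 d, with no overlap between postnatal and fetal values, and fell 2.24-fold at birth (log2 fold change -1.16, SE 0.23, adjusted p = 0.0033). That call was lost without 120 d replicate 1, 120 d replicate 3 or 150 d replicate 2, and with array medians set equal or quantile normalization. ZNF331, a KRAB gene that is imprinted in humans, averaged 95.3 ± 12.5 at 150 d against 186.7 ± 32.5 at 120 d. It was called at birth (log2 fold change -0.96, SE 0.23, adjusted p = 0.0090), a call that held only without 230 d replicate 1 or 230 d replicate 2 when single arrays were left out. In postnatal against fetal stages ZNF184 and ZNF331 fell by 1.11 and 0.87 on the log2 scale, called under every scaling and without any one array.

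The KRAB gene ZNF470 had the largest fitted fall at birth among the called genes, with wide spread between the fetal animals. It had 215.1, 457.8 and 123.8 at 80 d, 182.5, 558.2 and 416.9 at 100 d, 277.6, 194.1 and 330.3 at 120 d, 69.5, 24.2 and 75.5 at 150 d, and 123.9, 104.9 and 129.1 at 230 d. The 150 d values lay below all others, while those of 230 d overlapped the lowest at 80 d. The fall at birth was 5.19-fold (log2 fold change -2.38, SE 0.54, adjusted p = 0.0079) and was lost without any of 10 of the 15 arrays, with adjusted p up to 0.034. In postnatal against fetal stages its log2 fold change of -1.84 was called under every scaling and without any one array. The gene's other probe set gave -1.05 at birth, which was not called (adjusted p = 0.073), and -1.0 in postnatal against fetal stages, which was (adjusted p = 0.0057).

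The SCAN gene ZNF397 differed between its probe sets. The brighter one had 70.9, 69.7 and 64.5 at 150 d against 152.6, 131.1 and 129.1 at 120 d and fell 2.01-fold (log2 fold change -1.01, SE 0.16, adjusted p = 0.0012). The dimmer one had a fitted change of 0.56 that was not called (adjusted p = 0.36), with geometric means of 53.5 at 150 d and 36.4 at 120 d. The fall of ZNF397 therefore holds for 1 probe set. Probe sets of ZNF414 differed in sign between 230 and 150 d, at -0.73 and 0.92, with neither called, and all 3 of its probe sets were lower in postnatal than in fetal stages, at -0.96 (called), -1.41 and -1.39.

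ZNF362 and ZNF384 are paralogues, and they differed in course. ZNF362 had 149.6, 111.1 and 211.5 at 150 d against 302.2, 312.9 and 321.8 at 120 d, and its fetal means were 419.1 ± 20.7, 382.4 ± 16 and 312.3 ± 9.81 at 80, 100 and 120 d. The fall at birth was 2.05-fold (log2 fold change -1.04, SE 0.21, adjusted p = 0.0040) and was lost without any one array of 120 d or without 150 d replicate 1 or 2. In postnatal against fetal stages the log2 fold change of ZNF362 was -1.18, called under every scaling and without any one array. ZNF384, a protein of the nuclear matrix that binds collagen and metalloproteinase promoters in rodent cells, was among the 3 steadiest genes with a mean signal above 100. Its stage means were 293.1, 234.8, 322.1, 267.4 and 242.8, with an SD of 0.19 between stage means on the log2 scale. The difference between both genes was not tested. The other steady genes were ZNF692, with stage means between 392.0 and 478.7, and ZNF688, with stage means between 120.8 and 150.3.

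Of 17 genes listed for chromatin complexes and transcriptional activation, 10 were tested, with 0 called at birth, beside 11.2% of all probe sets. In postnatal against fetal stages 3 were lower (30%), near the 34.5% of all probe sets called, a count that ranged from 0 to 7 under the other scalings. ZNF148, a factor of GC-rich promoters, averaged 284.4 ± 11.3 at 150 d and 327.7 ± 54.5 at 230 d, against 421.6 ± 62.9, 440.1 ± 26.5 and 483.1 ± 84.8 at 80, 100 and 120 d (log2 fold change -0.55, SE 0.12, adjusted p = 0.0025). ZNF263, with KRAB and SCAN domains, lay under 50 on every 150 d array, with 30.9, 18.8 and 31.9, and its postnatal geometric mean was at least 1.38-fold lower than the fetal one (adjusted p = 0.0053). ZNF292, a gene mutated in human neurodevelopmental disorders, had 119.7, 122.9 and 127.5 at 150 d and 38.4, 150.0 and 174.7 at 230 d, where a single low array widened the spread. Its fitted fall was -1.25 (SE 0.31, adjusted p = 0.0050), lost without any of 8 single arrays, and its other probe set, with both group means under 50, gave -0.12.

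Several of the other falls in postnatal against fetal stages were at low signals. ZNF668 was at least 1.81-fold lower (adjusted p = 5.5e-04) and ZNF197, with KRAB and SCAN domains, at least 1.56-fold lower (adjusted p = 0.0066), both taken against a signal of 50. ZNF668 averaged 127.1, 101.6 and 59.6 at 80, 100 and 120 d, 32.4 at 150 d and 57.2 at 230 d. Its mean was thus already lower at 120 d than at 80 d, its 230 d values overlapped those of 120 d, and it was not called at birth. ZNF165, a SCAN gene known from human testis and tumours, passed with an adjusted p of 0.0087, but both its group means lay under 50 and no fold is given. The KRAB gene ZNF354A averaged 72.2 ± 22.4 at 150 d and 71.5 ± 6.02 at 230 d, against 118.4 ± 34.4, 179.4 ± 45.1 and 105.6 ± 17.8 before birth (log2 fold change -0.87, SE 0.19, adjusted p = 0.0025). ZNF3, ZNF34, ZNF414 and ZNF582 also fell, with log2 fold changes between -0.96 and -0.62. Each of these calls was made under 3 of the 5 scalings, whereas those of ZNF354A and ZNF668 were made under all 5. ZNF414 was also lower before birth, with means of 291.5, 270.1 and 167.8 at 80, 100 and 120 d, 159.7 at 150 d and 104.4 at 230 d. When single arrays were left out, the calls of ZNF3, ZNF354A and ZNF668 remained in all 15 cases. Those of ZNF34, ZNF582, ZNF263 and ZNF197 were lost in 7, 6, 6 and 8 cases, that of ZNF414 without 150 d replicate 1 or 3, and that of ZNF165 in all but those without 120 d replicate 2 or 230 d replicate 3.

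The rises were fewer. ZNF706, a small protein that helps mouse embryonic stem cells leave self-renewal, was the brightest member, with 2004.9, 2493.5 and 2428.3 at 150 d against 1697.5, 1225.8 and 1181.6 at 120 d. Its fetal means were 1900 ± 57.7, 1569 ± 93.0 and 1368 ± 286 at 80, 100 and 120 d, and it had 2134.5, 2063.7 and 2113.0 at 230 d, above every fetal array. The rise at birth was 1.70-fold (log2 fold change 0.77, SE 0.17, adjusted p = 0.0077). It was called without 120 d replicate 1 or 150 d replicate 1 but lost without each of the other 13 arrays, and its postnatal against fetal value of 0.47 turned to -0.22 under scaling to the hybridisation controls.

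ZNF75D, with KRAB and SCAN domains, showed the largest fitted rise over all stages. It had 364.5, 581.4 and 758.7 at 80 d, 343.1, 695.0 and 575.5 at 100 d, 401.7, 786.5 and 662.0 at 120 d, 962.6, 1396.9 and 1314.7 at 150 d, and 1136.2, 1346.4 and 824.1 at 230 d. The fetal animals of each stage varied widely, yet no postnatal value was as low as the highest fetal one. The postnatal against fetal rise was 2.08-fold (log2 fold change 1.05, SE 0.23, adjusted p = 0.0022), and it was not called with the 100 brightest probe sets left out of the scaling or with the hybridisation controls. ZNF524, which binds telomere repeats in human cells, averaged 233.3 ± 38.6 at 150 d and 230.4 ± 22.2 at 230 d, against 127.6 ± 11.0, 120.9 ± 8.67 and 166.6 ± 41.4 before birth (log2 fold change 0.76, SE 0.13, adjusted p = 5e-04). Its rise was lost under the hybridisation controls alone among the scalings.

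ZNF24, a SCAN gene needed for myelination in mice, was the only one of the 5 brightest genes with no call. It had 1078 ± 154, 809.1 ± 85.0, 670.8 ± 149, 806.7 ± 210 and 736.0 ± 200 at the 5 stages, and the stages overlapped from 100 d on. ZNF45, a KRAB gene singled out after its values were seen, had the shape of ZNF385A after birth, with 329.5, 199.8 and 290.3 at 150 d. These lay above 157.4, 130.3 and 114.3 at 120 d and 78.6, 122.4 and 138.3 at 230 d, but both differences missed the threshold (log2 1.01 and -1.28, adjusted p = 0.015 and 0.013).

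Calls were spread unevenly over brightness, in classes of mean signal that were chosen after the values were seen. At birth 0 of 31 ZNF genes with a geometric mean under 100 were called, 8 of 33 between 100 and 300, and 2 of 13 above 300. The shares for all probe sets were 3.22%, 10.7% and 24.6%. In postnatal against fetal stages the ZNF shares were 19.4%, 42.4% and 53.8%, beside 19.6%, 37.7% and 54.7% of all probe sets in these classes.

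The proteins that KRAB domains recruit were read on the same arrays. Of 24 listed, 18 were tested, with 1 rise and 0 falls at birth and 1 rise and 7 falls in postnatal against fetal stages. That is 5.56% called at birth, beside 11.2% of all probe sets, and 44.4% called over all stages, beside 34.5%. TRIM28, the scaffold itself, averaged 438 ± 101 at 150 d and 474 ± 61.8 at 230 d, against 800 ± 19.6, 650 ± 51.5 and 583 ± 91.5 before birth (log2 fold change -0.57, SE 0.13, adjusted p = 0.0024). DNMT1, the maintenance DNA methyltransferase, and UHRF1, which guides it to replicated DNA, fell by 1.55 and 1.47 on the log2 scale in postnatal against fetal stages (adjusted p = 4.9e-04 each). Neither was called at birth, and both means were already lower at 120 d than at 80 d. DNMT1 averaged 348, 247 and 189 at 80, 100 and 120 d, 88.4 at 150 d and 105 at 230 d. UHRF1 averaged 414, 367, 198, 189 and 78.5 at the same stages. SETDB1, the histone methyltransferase of the complex, was not called. HDAC1, a histone deacetylase, rose 2.03-fold at birth (log2 fold change 1.02, SE 0.23, adjusted p = 0.0082), with 1310 ± 453 at 150 d against 623 ± 92.7 at 120 d. At 230 d it was back at 564 ± 52.1. In postnatal against fetal stages HDAC1 was not called as deposited (limma log2 fold change 0.40, adjusted p = 0.043), so the rise counted there is that of another gene. CBX3, which binds methylated histone H3, fell by 0.92 (adjusted p = 1.2e-04). The median over the 18 genes was -0.44, beside -0.13 over all probe sets. The other scalings gave 4 to 13 falls and 0 to 2 rises over all stages. The falls of DNMT1, UHRF1 and CBX3 were called under all 5 scalings. The fall of TRIM28 missed the threshold with array medians set equal (adjusted p = 0.015). The rise of HDAC1 at birth was called, beside the deposited scaling, only with array medians set equal.

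Markers of muscle and of other cells were read in the same comparisons, and not every list changed at birth. The shares of all probe sets called lower and higher were 6.77% and 4.41% at birth and 21.3% and 13.3% in postnatal against fetal stages, and the marker lists hold only 3 to 6 tested genes each. Of the 5 fibre markers, 1 was called higher at birth (MB, myoglobin) and 5 in postnatal against fetal stages (3 to 5 under the other scalings), with sums of 89000 to 192000 on postnatal and 49700 to 83000 on fetal arrays. Of 4 myoblast markers, 0 were called at birth, and over all stages DES rose and MYOG fell as deposited, while quantile normalization called neither. Of 4 adipocyte markers, FABP4 alone was called, higher in both comparisons, and the sum was 896 to 1590 at 150 d and 517 to 788 at 230 d, against 123 to 915 before birth.

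Of the proliferation markers CCNB1, CDK1 and PCNA, 0 were called at birth and 3 were lower over all stages, with sums of 467 to 1380 on postnatal and 867 to 2000 on fetal arrays. The mean sum already declined before birth, with 1840, 1410 and 950 at 80, 100 and 120 d, and was 915 at 150 d and 553 at 230 d. Of 6 endothelial markers 4 were lower at birth and 4 over all stages. Their sum was 3400 to 3870 at 80 d, 5020 to 6140 at 100 d, 5510 to 6520 at 120 d, 1760 to 3300 at 150 d and 2720 to 2990 at 230 d. All postnatal arrays thus lay below all fetal arrays, those of 80 d included. Of 4 erythroid markers, HBB and ALAS2 were lower in both comparisons, and the sum was 2170 to 3500 on postnatal and 13800 to 26300 on fetal arrays. Most of the fetal sum was HBB, which averaged 18800, 12000, 12500, 249 and 56.0 at the 5 stages. HBA and GYPC were called in neither comparison. HBA averaged 76.8, 101, 92.4, 97.5 and 83.7, and GYPC 1710, 3040, 2800, 2390 and 2780. Of 6 fibroblast markers 0 were called at birth and 3 were lower over all stages, namely COL1A1, DCN and LUM, and the other scalings gave 0 to 2 and 1 to 5 falls. Their sum was 42300 to 70400 on postnatal and 50500 to 74500 on fetal arrays. Leukocyte markers were called lower in 1 of 5 cases at birth and in 0 over all stages. At 230 d against 150 d 1 of 5 was called higher, beside 2.03% of all probe sets called. Their sum was 302 to 424, 321 to 355 and 322 to 382 at 80, 100 and 120 d, 250 to 280 at 150 d and 445 to 565 at 230 d. Markers of Schwann cells and nerve were called lower in 1 of 3 cases at birth and 2 of 3 over all stages. Their sum was 368 to 452, 544 to 573 and 692 to 852 before birth, 259 to 382 at 150 d and 435 to 477 at 230 d. The part of these cells in the ZNF changes was not tested, and in whole muscle fewer cells of a type and less RNA per cell cannot be told apart.

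Symbols of 67 members were found among the ovine genes of the RefSeq annotation of assembly ARS-UI_Ramb_v3.0, and 10 were not, among them ZNF397 and ZNF470. In the order of that annotation 9 pairs of members had at most 5 genes between them. ZNF197 and ZNF35 lay next to each other, with log2 fold changes of -0.80 and -0.38 at birth, neither called. ZNF326, which fell by 0.94, had ZNF644 nearby at -0.43, which was not called. ZNF48 and ZNF771, also adjacent, had 0.34 and 0.40, and ZNF667 and ZNF582 had 0.15 and -0.80, with none of the 4 called at birth.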

How the data were processed

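The intensities were deposited by the authors as MAS5 signals of Affymetrix bovine arrays, 1 per animal. By the study's methods the MAS5 software subtracted a local background, joined perfect match with mismatch probes through Tukey's biweight and set every array to a mean of 200, which the 2% trimmed means matched here. Its version is not given in the sources. Stages were taken from the labels. The 112 control probe sets were dropped, and of the other 24016 those with a signal of 50 or more on at least 3 arrays were kept (15998). Before log2 was taken, 2 values lay under a floor of 0.1 and were raised to it. Genes were named from the platform annotation, which can be old: 13292 probe sets had 1 symbol, 86 several and 10638 none, and only those with 1 named a gene.

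The 6 contrasts were fitted with limma 3.58.1 in R 4.3.3 (lmFit and eBayes without a trend, 10 residual degrees of freedom), with the Benjamini-Hochberg adjustment over all kept probe sets of a comparison at 0.01. The postnatal against fetal contrast is the mean of the 150 d and 230 d means minus that of the 3 fetal means. Standard errors (SE) are those of limma, and means ± SD are of linear signals. A geometric mean under 50 in 1 group was replaced by 50, which makes the fold a lower bound, and with both under 50 none is printed. The fits were tested on simulated data. Figures were drawn with matplotlib 3.10.9. Arrays give no counting depth, so their number limits the precision.

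Named genes were the up to 6 largest rises and 6 largest falls past the threshold at birth, between 150 and 230 d and in postnatal against fetal stages, for fetal comparisons without calls the 2 smallest p, the 5 brightest, the 3 with the smallest spread of stage means above a mean signal of 100, genes whose probe sets disagreed in sign, and members of role lists past the threshold. The other genes printed were added after their values were seen. Members, lists and rule were chosen with earlier results of these data known. Alternatives covered scaling, filters, an offset, the probe set of a gene, the test, the threshold, the arrays fitted, a replicate block and leaving out single arrays.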

Additional observations from a re-analysis of the deposited data

How the results depend on the processing

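The 10 ZNF calls between 120 and 150 d became 23 with the hybridisation controls, 5 without a filter (of 87 genes), 15 with a signal minimum of 100 (of 59) and 18 at an adjusted p under 0.05, and 0 when only the 6 arrays of these stages were fitted, where 0.0125% of all probe sets were called. The share of all probe sets called moved with these settings, to 25.2%, 4.62%, 19.1% and 22.4% for the first 4 of them in the same order. With each array left out in turn they ranged from 3 to 9: 3 without 120 d replicate 3 or 150 d replicate 2, 5 without 120 d replicate 2 and 6 without 120 d replicate 1 or 80 d replicate 1. The single call between 150 and 230 d became 2 with array medians set equal, with quantile normalization, without the 100 brightest probe sets in the scaling, with an offset of 16, with either stricter filter, with the trend and robust options, with a moderated F gate and at 0.05, and 0 when only the arrays of both stages were fitted. The F gate also gave 1 call between 80 and 100 d and 1 between 100 and 120 d, where all other settings gave 0. The 27 postnatal against fetal calls became 45 with the hybridisation controls (53.5% of all probe sets), 18 with array medians set equal (33.6%) or without a filter (20.3%), and 19 to 26 with single arrays left out.

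The median log2 fold change at birth of -0.29 moved to -0.10 with array medians set equal, -0.13 with quantile normalization, -0.94 with the hybridisation controls and -0.50 without the 100 brightest probe sets, and lay between -0.38 and -0.24 with single arrays left out. The sign turned for ZNF397 on its other probe set (0.56 at birth, 0.52 in postnatal against fetal stages) and, with the hybridisation controls in postnatal against fetal stages, for ZNF462 (-0.11), ZNF622 (-0.19) and ZNF706 (-0.22). Of 1215 alternative values of 44 gene results, 995 kept direction and side of the threshold, 213 lost the call, 2 gained one and 5 turned. The causes were not tested. A fit with the replicate number as a block gave 7 calls at birth, all lower, and 24 in postnatal against fetal stages. The numbers do not pair animals, since stages used different animals. Correlations of deviations over 30 same-numbered pairs ran from -0.0528 to 0.207, with a median of 0.035 and 6 above 0.1. Pairs with different numbers were not set beside them, so these values cannot show whether arrays of 1 number share a batch. Signals near 50 allow only bounds, and 3 animals per stage limit all values.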

Other observations

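Zinc finger genes with other names were read by the same fit, as lists chosen with earlier results of these data known. Of 14 tested genes of the ZBTB family, which pair a BTB domain with zinc fingers, 2 fell at birth (14.3% called, beside 11.2% of all probe sets), and 1 rose and 4 fell in postnatal against fetal stages (35.7%, beside 34.5%), shares near the background. ZBTB16, known for roles in limb patterning and progenitor cells, averaged 14.3 ± 10.4, 29.7 ± 8.10, 56.0 ± 19.6, 90.8 ± 8.59 and 172 ± 36.0 at 80, 100, 120, 150 and 230 d (SD, n = 3 each). All postnatal arrays lay above all fetal arrays, and the rise was at least 2.48-fold against a signal of 50 (adjusted p = 3.2e-05). ZBTB5 had 83.1 ± 16.6 at 150 d against 173 ± 6.99 at 120 d and fell 2.11-fold at birth (adjusted p = 0.0011). Of 5 tested genes named ZSCAN or ZKSCAN, 1 was called in postnatal against fetal stages (20%, beside 34.5% of all probe sets) and 0 at birth (beside 11.2%). It was ZSCAN26, which fell, with 135 ± 6.23 at 150 d and 149 ± 62.9 at 230 d, against 297 ± 10.8, 336 ± 56.2 and 303 ± 69.9 before birth (adjusted p = 1.9e-04).

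Of 4 tested genes named ZFP, 2 fell at birth (50% called, beside 11.2%) and 2 rose between 150 and 230 d (50%, beside 2.03%). In postnatal against fetal stages 1 rose and 2 fell (75%, beside 34.5%). The ZFP36 genes, whose CCCH fingers bind AU-rich elements of mRNA and speed its decay, differed in course. ZFP36L1 averaged 6480 ± 679, 6020 ± 776 and 6740 ± 852 before birth, 3880 ± 485 at 150 d and 4100 ± 440 at 230 d. ZFP36L2 averaged 936 ± 59.3, 1170 ± 231, 1280 ± 83.2, 550 ± 131 and 1670 ± 292 at the 5 stages. It fell 2.36-fold at 150 d against 120 d (adjusted p = 0.0019) and rose 3.07-fold at 230 d against 150 d (adjusted p = 0.0017), with no overlap between arrays at either step. ZFP36 rose 3.35-fold at 230 d, with 733 ± 275 against 210 ± 10.6 at 150 d (adjusted p = 0.0072). Of 7 tested KLF and SP genes, 2 rose and 1 fell in postnatal against fetal stages (42.9% called, beside 34.5%). KLF10, a gene induced by TGF-beta, averaged 842 ± 147 at 150 d and 1790 ± 911 at 230 d, against 375 ± 147, 503 ± 172 and 542 ± 66.4 before birth (adjusted p = 0.0014). KLF5, a regulator of proliferation in smooth muscle, averaged 290 ± 189 at 150 d and 134 ± 35.9 at 230 d, against 564 ± 52.7, 736 ± 308 and 485 ± 98.5 before birth (adjusted p = 2.7e-04). Of the single genes given here with an adjusted p, ZBTB16, ZBTB5, ZSCAN26 and KLF5, and ZFP36L2 for its fall at birth, were called under all 5 scalings. The rises of ZFP36, ZFP36L2 and KLF10 were called under all but the hybridisation controls (adjusted p = 0.031, 0.015 and 0.067).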
